A study of Homo sapiens with 20 samples.

Results

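The genes described here supply and dispose of the deoxynucleotides that cells build into DNA. They are 9 of the 18417 genes tested on the arrays: the ribonucleotide reductase subunits RRM1, RRM2 and RRM2B, the thymidylate genes TYMS and DUT, the salvage kinases TK1 and DCK, the pyrimidine synthesis gene CAD and the deoxynucleotide triphosphate hydrolase SAMHD1. They were chosen by name, and each had 1 probe set with a single gene symbol, so all 9 were measured and none was lost to a filter. RNA was taken from LNCaP, an established human prostate cancer line that responds to androgens, and read on 20 Affymetrix Human Gene 1.0 ST arrays in 7 groups. By its title, the study asked how the transcripts that dihydrotestosterone (DHT), the main androgen of the prostate, induces vary with the cell cycle.

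The 2 control groups were treated for 72 h with what the labels call CDT. CDT (n = 3) had ethanol for the last 3 h, and CDT + DHT (n = 3) had 10 nM DHT instead. The arrested groups were not treated with CDT, and all 5 received 10 nM DHT 3 h before harvest. The growth protocol names hormone-proficient medium for every sample, and how that medium and the CDT treatment were combined in the controls is not stated. Early G1 cells (n = 3) had 0.5 µM PD-0332991, an inhibitor of the kinases CDK4 and CDK6, for 24 h. Late G1 cells (n = 3) had 5 µg/mL roscovitine, which inhibits several cyclin-dependent kinases, for 24 h. Early S cells (n = 2) had 2 µg/mL aphidicolin, a DNA polymerase inhibitor, for 24 h. Late S cells (n = 3) had 1 mM hydroxyurea, which acts on ribonucleotide reductase itself, for 24 h. G2/M cells (n = 3) had 2 µg/mL aphidicolin for 15 h and, after it was washed out, 50 ng/mL nocodazole, a microtubule poison, for 9 h. Each phase was reached with 1 drug schedule, so the phase and the drug cannot be told apart. An arrest set against CDT differs in DHT, drug and CDT treatment together, and an arrest set against CDT + DHT differs in drug and CDT treatment. No arrest without DHT is analysed here. Nothing in the labels ties replicates to separate cultures, and p-values then measure only the variation among these arrays, which may be technical.

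Ribonucleotide reductase turns ribonucleotides into deoxyribonucleotides, the step that commits them to DNA. RRM1 encodes its large catalytic subunit, RRM2 the small subunit that carries the tyrosyl radical and is made mainly in cycling cells, and RRM2B (p53R2) a second small subunit that p53 can induce and that serves cells outside S phase. TYMS makes the thymidylate needed for DNA from deoxyuridylate, and DUT supplies that deoxyuridylate while keeping deoxyuridine triphosphate low. TK1 and DCK phosphorylate salvaged deoxynucleosides, CAD begins the synthesis of pyrimidines, and SAMHD1 breaks deoxynucleotide triphosphates down.

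On this array RRM2 is read by probe set 8040223 and its gene lies at chr2:10122568-10211010 (GRCh38.p14, RefSeq). TYMS is read by probe set 8019842 and lies at chr18:657653-673578. RRM1 is read by probe set 7937915 at chr11:4094685-4138932. DUT lies at chr15:48331095-48343373, TK1 at chr17:78174079-78187204, DCK at chr4:70993649-71030914, CAD at chr2:27217369-27243943 and SAMHD1 at chr20:36889773-36951708. The probe sets summarise each gene as a whole and are not tied here to single exons.

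Stretches of promoter are shown for RRM2 and TYMS, which ran together over the arrays, as given further on. Those of RRM1, DUT and TK1, which did not pass the test among the arrests, are shown beside them to compare a second reductase gene and other genes of thymidylate supply. They come from RefSeq windows that reach from 250 bases before to 50 bases after a start site (GRCh38.p14), and 13 windows matched 8 of the 9 genes. RRM2B had no entry. The motifs were searched on both strands and no word contains another. They were CCAAT, a box bound by the factor NF-Y, the letters TTTCCCGC, TTTCGCGC, TTTGCCGC and TTTGGCGC as E2F words, and TTTGAA as the cell cycle homology region (CHR). Capitals mark the motif in each stretch, which is written 5′ to 3′ on the strand of the gene.
RRM2 box 1, chr2:10122604-10122633, plus strand: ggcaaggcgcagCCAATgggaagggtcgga
RRM2 box 2, chr2:10122634-10122663, plus strand: ggcatggcacagCCAATgggaagggccggg
RRM2 box 3, chr2:10122661-10122690, plus strand: ggggcaccaaagCCAATgggaagggccggg
RRM1 box, chr11:4094645-4094674, plus strand: gcatgtccatatCCAATggggcccatggga
TYMS E2F word, chr18:657603-657632, plus strand: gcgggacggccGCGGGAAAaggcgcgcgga
DUT E2F word, chr15:48332144-48332173, plus strand: gggcggggctgGCGGGAAAtttcggttttg
TK1 box 1, chr17:78187081-78187110, minus strand: ggccggctcgtgATTGGccagcacgccgtg
TK1 box 2, chr17:78187112-78187141, minus strand: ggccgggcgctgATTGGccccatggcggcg

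The 3 CCAAT boxes of RRM2 shown lie 123, 93 and 66 bases before the start site at position 10122739, and all 3 hold the same 15-base run, agCCAATgggaaggg. RRM2 has another CCAAT box, not shown, at the far end of the window before its start site at position 10122568. The RRM1 box lies 28 bases before its start site. In TYMS and DUT the capitals are TTTCCCGC read on the opposite strand, 39 and 42 bases before the start. DUT has another E2F word, TTTGGCGC on the strand of the gene, not marked, 27 bases before the same start. In TK1 they are CCAAT read on the opposite strand, 46 and 77 bases before the start. A CCAAT box was found in 6 of the 13 windows and in 34.6% of all 35116 windows. An E2F word was found in 3 of the 13 windows (TYMS, DCK and DUT) and in 3.31% of all. The CHR letters were found in 2 of the 13 windows (RRM1 and DUT) and in 15.2% of all. A match is a string of letters and was not tested as a bound site.

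The luminal prostate genes bore out the label: of those listed, 7 were read, and KLK3 (99.2nd percentile of all genes by mean log2 level), KLK2 (97.6th) and HOXB13 (91.8th) were bright. Stromal markers (7 of 7 measured) lay between the 4.68th and 67.8th percentiles, and of the endothelial markers CDH5 alone was bright (96.0th percentile). Mean log2 levels of the luminal list by array ran from 5.47 to 7.25, with the lowest in CDT. Over all genes the main axis of the spread within groups held 43.8% of that variance. At one end of it lay 4 arrays: late S replicate 1, early G1 replicate 2, CDT replicate 1 and CDT + DHT replicate 3. They touched the genes described here. In late S replicate 1, 9 of 9 were below their group mean, by 1.30 on average (log2). In early G1 replicate 2, 8 of 9 were below it, by 0.90 on average, in CDT replicate 1, 7 of 9, by 0.60, and in CDT + DHT replicate 3, 9 of 9, by 0.43. Late S replicate 2 lay at the other end of the axis, with 0 of 9 below their group mean and 0.93 above it on average. In early S replicate 1, not among the 4, 7 of 9 were below it, by 0.52 on average.

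RRM2 followed the arrests more closely than any other gene of the set. Intensities below are the deposited values of replicates 1, 2 and 3 on a linear scale. RRM2 read 43.4, 66.3 and 50.2 in CDT and 73.8, 71.5 and 52.7 in CDT + DHT. In early G1 it read 18.3, 17.3 and 47.7, and in late G1 10.5, 6.52 and 4.20. In late G1 replicates 2 and 3 it lay below the array medians of 7.30 and 8.13. In early S it read 157 and 240, in late S 83.6, 132 and 85.7, and in G2/M 152, 153 and 118. Every array of the S and G2/M arrests was therefore above every other array, and every late G1 array was below every other array. The plot of each gene by array shows the same steps on the log2 scale.

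**Figure D1:**
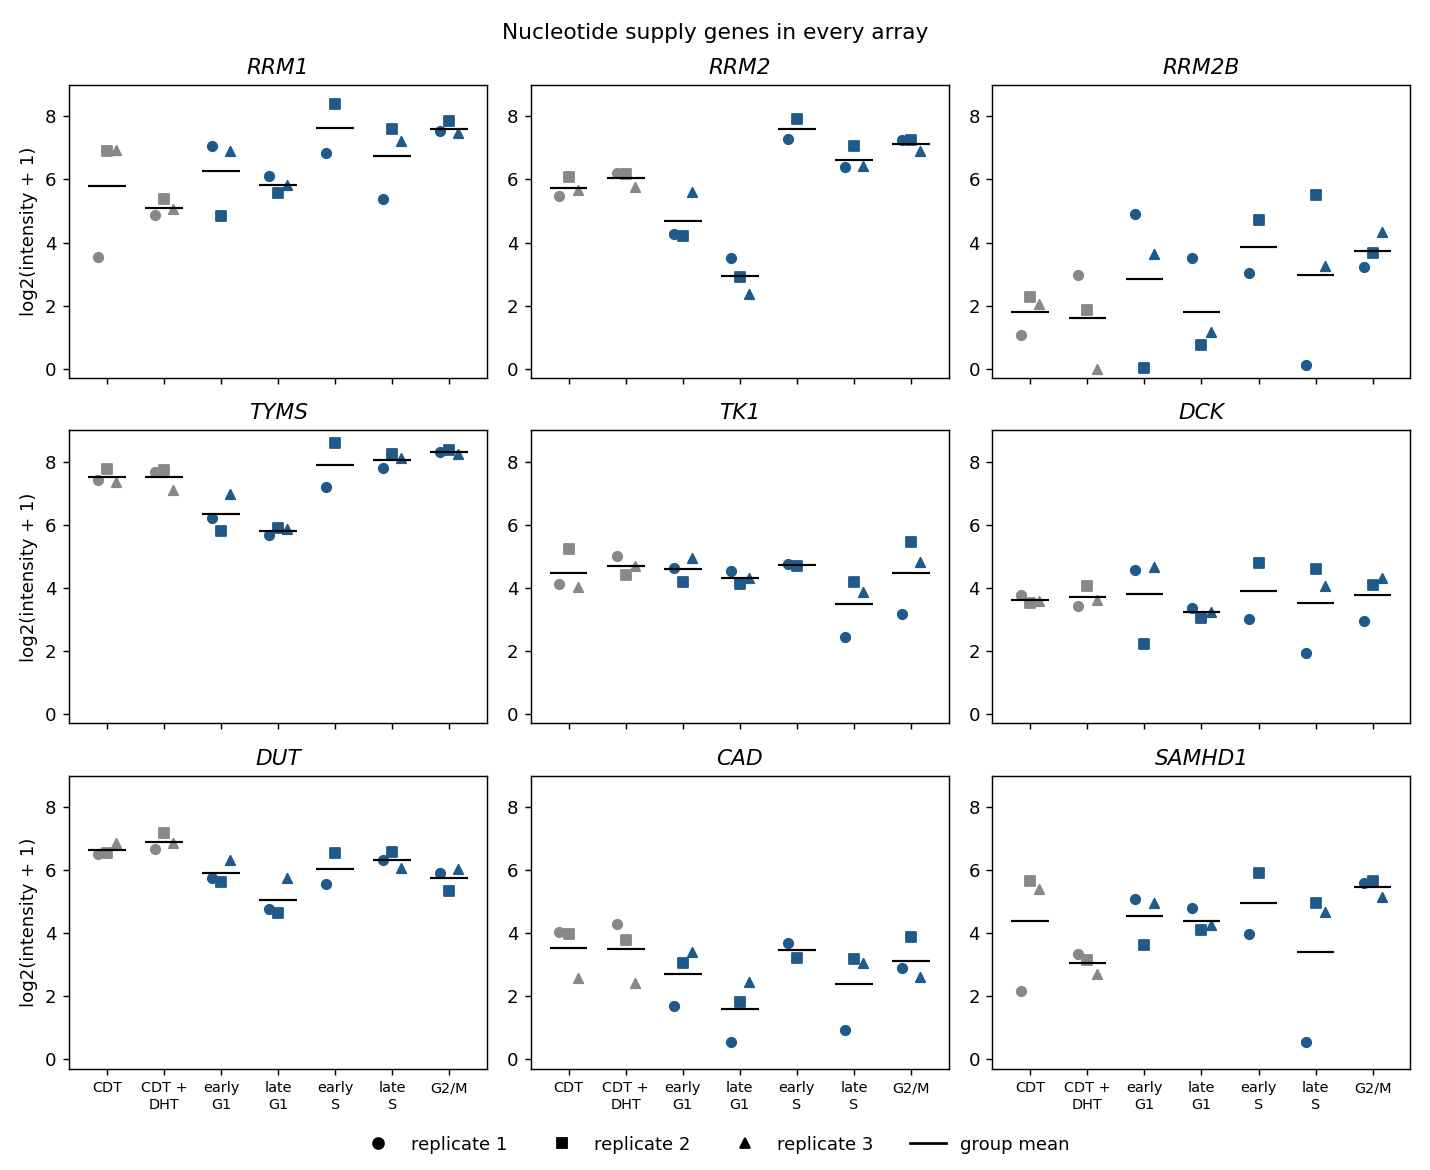
Each panel plots log2(intensity + 1) of 1 gene in every array, by group, with a marker for each replicate number (grey for the control groups, blue for the arrests) and a bar at the group mean. RRM2 steps from a mean of 2.94 in late G1 to 7.61 in early S, TYMS is lowest in the 6 G1 arrays, and RRM1, RRM2B, DCK and SAMHD1 scatter widely within groups.

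On the log2(intensity + 1) scale, on which all differences and fold changes below are given and which understates changes of dim genes, RRM2 averaged 2.94 ± 0.57 (SD, n = 3) in late G1. It averaged 4.69 ± 0.79 (n = 3) in early G1, 5.74 ± 0.30 (n = 3) in CDT and 6.05 ± 0.26 (n = 3) in CDT + DHT. In the later arrests it averaged 6.63 ± 0.36 (n = 3) in late S, 7.14 ± 0.21 (n = 3) in G2/M and 7.61 ± 0.43 (n = 2) in early S. Neighbours in that order lay apart by more than the pooled within-group SD of 0.46, except CDT and CDT + DHT, which differed by 0.31. A single limma model covered all arrays. A difference passed when its Benjamini-Hochberg adjusted p across the 18417 genes was under 0.05. RRM2 fell in late G1 against the mean of the other 4 arrests by 3.58 ± 0.39 (SE), or 12.0-fold (95% interval of the difference -4.39 to -2.77, adjusted p = 0.000111). In that comparison 0.706% of all genes passed, and of the 9 genes RRM2 and TYMS did. The adjusted p of RRM2 there ran from 3.2e-07 to 0.00434 over 30 alternative analyses, and without the 4 arrays at the end of the axis the difference was -3.67 (0.000453). In bulk RNA, fewer cells that express a gene and less RNA per cell cannot be told apart.

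Against the controls RRM2 was the only gene of the set to pass, and only in late G1. Against CDT + DHT it fell by 3.11 ± 0.49, or 8.66-fold (limma, adjusted p = 0.00562), where 0.516% of all genes passed. Against CDT it fell by 2.81 ± 0.49, or 6.99-fold (limma, adjusted p = 0.0200), where 0.103% of all genes passed. Both comparisons use the same late G1 arrays. The call against CDT was lost without CDT replicate 1, 2 or 3 (adjusted p = 0.0636, 0.161 and 0.0678) and without late G1 replicate 2 or 3 (0.0814 and 0.126). It was also lost without the 4 arrays at the end of the axis (0.0515) and, at 0.392, when the fit held the compared groups alone. The call against CDT + DHT was lost without CDT + DHT replicate 1 (0.0623) and with only the compared groups (0.107), and was -3.27 (0.0170) without those 4 arrays. Adjusted p ran from 0.00136 to 0.392 and from 0.000203 to 0.107 over the 30 alternatives of the 2 comparisons. With 16 in place of 1 added before the log, the late G1 differences of RRM2 shrank to -1.58 against CDT, -1.83 against CDT + DHT and -2.29 against the other arrests.

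The other RRM2 differences did not pass. Early G1 lay 1.05 ± 0.49 below CDT (limma, adjusted p = 0.955; 0.00543% of all genes passed) and 1.36 ± 0.49 below CDT + DHT (0.546; 0% passed). Late G1 lay 1.75 ± 0.49 below early G1 with arrays that did not overlap (adjusted p = 0.351; 0% passed). Late G1 arrays of 6.75% of all genes likewise lay wholly below early G1. The S arrests together lay 2.43 ± 0.44, or 5.38-fold, above early G1 (95% interval 1.51 to 3.34, adjusted p = 0.0715; 0.0271% passed). Without early G1 replicate 3, the array with the highest RRM2 of its group, that difference was 2.89 with an adjusted p of 0.0386. Of the 30 alternatives it passed in 6 and did not pass in 24. Early S lay 1.87 ± 0.54 above CDT (0.648; 0.0326% passed), and G2/M lay 1.40 ± 0.49 above CDT (0.524; 0.109% passed). Late S lay 0.89 ± 0.49 above CDT (0.840; 0.0977% passed). Against CDT + DHT, early S lay 1.56 ± 0.54 (0.498; 0.00543% passed) and late S 0.58 ± 0.49 (0.700; 0.0706% passed) above it. G2/M lay 1.09 ± 0.49 above CDT + DHT with arrays that did not overlap (0.299; 0.440% passed). G2/M arrays of 15.1% of all genes likewise lay wholly above CDT + DHT. Both S arrests and G2/M are set against the same control arrays.

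Among the 5 arrests taken at once, the moderated F test of limma passed for RRM2 (F = 29.6, adjusted p = 0.000209, the 5th largest F of 18417 genes) and for TYMS (F = 11.5, adjusted p = 0.0301, 39th), and 0.255% of all genes passed. RRM2 passed that test in all 20 fits that left out 1 array, and TYMS in 7 of them. The other 7 genes had adjusted p-values between 0.862 and 0.979. As a description, differences between the 7 groups held 93.8% of the variance of RRM2 over the arrays, 87.4% of that of TYMS and 76.0% of that of DUT. The median over all genes was 34.3%. RRM2 was 1 of 11 genes (0.0597% of all) whose 8 arrays of early S, late S and G2/M all exceeded the 12 others, a split looked at after the data were seen. The other 10 were CDKN1A, DDB2, FAXDC2, GAS6-AS1, PTGES, S100P, SAA1, SFN, SLPI and TP53I3. CDKN1A, the p21 inhibitor of cyclin-dependent kinases, averaged 8.49 ± 0.08 (SD, n = 2) in early S and 8.85 ± 0.48 (n = 3) in late S, against 4.98 ± 1.23 (n = 3) in CDT.

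TYMS, the thymidylate synthase gene, was low in both G1 arrests. It read 73.1, 55.7 and 126 in early G1 and 50.3, 59.0 and 57.0 in late G1. In CDT it read 170, 216 and 162, and in CDT + DHT 204, 214 and 138. In early S it read 146 and 389, in late S 221, 303 and 279, and in G2/M 319, 331 and 302. The 6 G1 arrays lay below all 14 others. By the same kind of split TYMS was 1 of 3 genes (0.0163% of all) with that order, and the others were CDC25B, a phosphatase that drives entry into mitosis, and CLU, which encodes the chaperone clusterin.

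TYMS fell in late G1 against the other arrests by 1.84 ± 0.37, or 3.58-fold (limma, adjusted p = 0.0224), although arrays of late and early G1 overlapped. That call was lost without late G1 replicate 1, 2 or 3 (adjusted p = 0.114, 0.0873 and 0.113) and with only the arrests in the fit (0.0790), and its adjusted p ran from 0.000470 to 0.114 over 30 alternatives. Without the 4 arrays at the end of the axis it was -1.94 (0.0112). Late G1 lay 1.69 ± 0.46 below CDT (adjusted p = 0.193) and 1.70 ± 0.46 below CDT + DHT (0.0998) without passing. With 16 added before the log both passed, at 0.0304 and 0.0107. Early G1 lay 1.17 ± 0.46 below CDT (0.952). Late G1 lay 0.53 ± 0.46 below early G1 without passing (limma, adjusted p = 0.912). In G2/M TYMS averaged 8.31 ± 0.06 (SD, n = 3), its highest mean, 0.80 ± 0.46 (SE) above CDT (0.784). Only the steps from CDT to early G1 (1.17) and from early to late G1 (0.53) in the order of its group means exceeded its within-group SD of 0.41.

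DUT, the dUTPase gene, was highest in the controls rather than in S phase. It read 89.6, 92.4 and 115 in CDT and 99.9, 143 and 116 in CDT + DHT. In early G1 it read 52.9, 49.0 and 78.1, in late G1 26.2, 23.7 and 53.0, and in early S 46.1 and 92.3. It read 78.9, 94.5 and 66.4 in late S and 58.9, 39.3 and 65.1 in G2/M. All 3 G2/M arrays were below all 6 control arrays, the opposite side to RRM2 and TYMS. G2/M arrays lay wholly below CDT for 7.55% of all genes and wholly below CDT + DHT for 11.8%. G2/M lay 0.87 ± 0.46 below CDT (limma, adjusted p = 0.756) and 1.14 ± 0.46 below CDT + DHT (0.253; 0.440% of all genes passed). Late G1 lay 1.58 ± 0.46 below CDT (0.245) and 1.85 ± 0.46, or 3.61-fold, below CDT + DHT (0.0762), and no DUT difference passed in the main analysis. Late G1 against CDT + DHT passed with 16 added before the log (0.00516), centring (0.0447), only the brighter genes (0.0187), eBayes with trend and robust (0.0182) and array weights (0.00925), and late G1 against CDT passed with 16 added (0.0353).

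**Figure D2:**
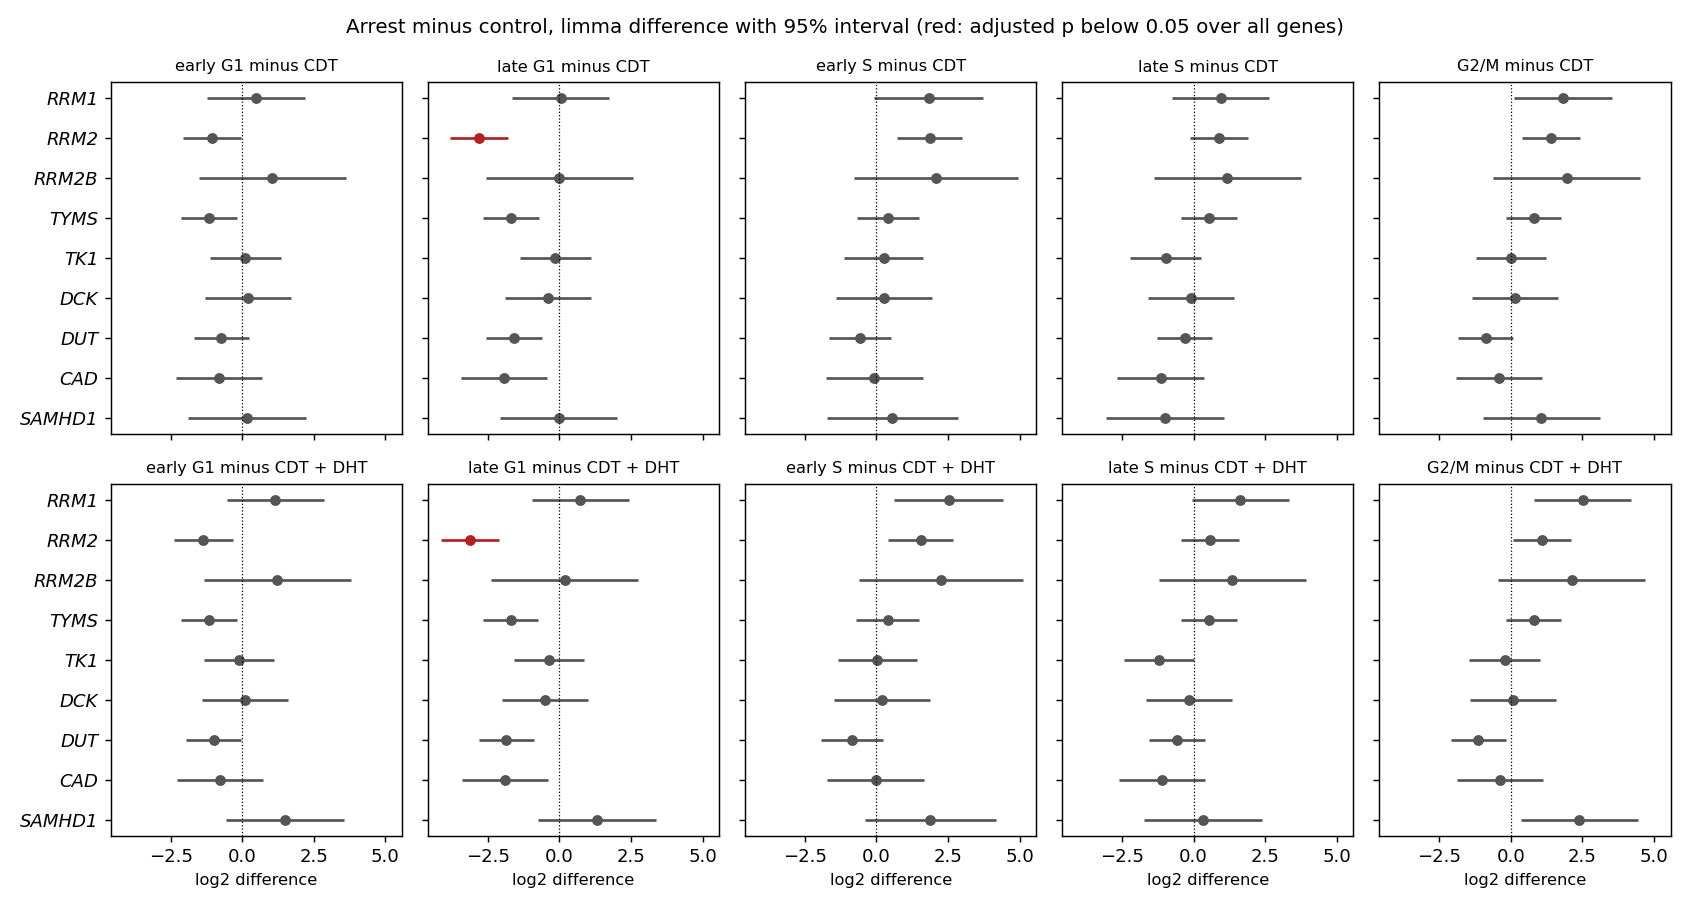
Points are limma differences on the log2(intensity + 1) scale of each arrest minus CDT (upper row) or minus CDT + DHT (lower row) for each gene, lines are 95% intervals, and red marks an adjusted p below 0.05 over all genes. RRM2 in late G1 is the only red point in each row, at -2.81 and -3.11.

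RRM1, the large subunit gene, passed in no late G1 comparison of the main analysis. It read 68.4, 46.1 and 56.3 there, against 10.7, 118 and 120 in CDT and 28.5, 40.7 and 32.4 in CDT + DHT. In early G1 it read 133, 27.4 and 119, in early S 114 and 337, in late S 41.1, 194 and 147, and in G2/M 184, 231 and 176. Late G1 differed from CDT by 0.05 ± 0.81 (95% interval -1.65 to 1.75, limma, adjusted p = 0.993) and from CDT + DHT by 0.73 ± 0.81 (0.751). Without CDT replicate 1, the dim array of its group, the difference from CDT was -1.07 (0.846), and it was also -1.07 (0.487) without the 4 arrays at the end of the axis. Its late G1 arrays lay above all CDT + DHT arrays, where those of RRM2 lay below. Against the other arrests RRM1 was 1.22 ± 0.65 lower in late G1 (0.540). Without the 4 arrays at the end of the axis it was -1.57 and passed (0.0397).

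The change of RRM2 relative to RRM1 within each array was set out after RRM2 was seen to be low in late G1, and is a description without a test. The log2 value of RRM2 minus that of RRM1 has no absolute meaning across probe sets, but its change between arrays does. It was -2.60, -2.65 and -3.46 in late G1. In the other 11 arrests it ran from -2.80 to 1.01, and 10 of the 11 arrays lay above every late G1 array. The exception was early G1 replicate 1. The mean was 2.31 lower in late G1 (-2.90 against -0.59). Without the arrays at the end of the axis, 2 of which are arrests, the difference was -2.13 over 9 other arrays. RRM2 minus RRM2B was 1.97 lower in late G1, with 8 of 11 arrays above.

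RRM1 was brightest in G2/M and early S. G2/M averaged 7.62 ± 0.21 (SD, n = 3) and CDT + DHT 5.11 ± 0.25 (n = 3), with no overlap, as for 15.1% of all genes in that direction. The difference of 2.51 ± 0.81 (SE), or 5.70-fold, did not pass (limma, adjusted p = 0.164). It passed at 0.0127 with array weights, at 0.0341 with only the compared groups and at 0.0385 without the 4 arrays at the end of the axis. Against CDT, where replicate 1 read 10.7 and the others 118 and 120, the G2/M difference was 1.83 ± 0.81 (0.676), and it was 0.71 without that replicate.

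RRM2B, the p53-inducible small subunit gene (probe set 8152133, chr8:102204501-102238961), was dim and varied more within groups than any other gene of the set, with a pooled SD of 1.74. It was below the array median in 11 of 20 arrays. It read 1.08, 3.87 and 3.15 in CDT, 6.86, 2.65 and 0.00345 in CDT + DHT and 10.4, 0.678 and 1.21 in late G1. In early G1 it read 28.7, 0.0168 and 11.3, and in late S 0.0755, 44.9 and 8.68, so replicates of 1 group covered nearly the whole range of the gene. In early S it read 7.16 and 25.1, and in G2/M 8.35, 11.8 and 19.1, all above the CDT arrays. G2/M lay 1.95 ± 1.23 above CDT (limma, adjusted p = 0.793; 95% interval -0.62 to 4.52) and early S 2.07 ± 1.37 above it (0.912). These intervals leave room for no change and for changes larger than those called for RRM2. CDKN1A, another p53 target, passed in late S against CDT (3.88 ± 0.59 higher, adjusted p = 0.0123), where RRM2B differed by 1.17 ± 1.23 (0.940).

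SAMHD1, the enzyme that removes deoxynucleotide triphosphates, had array values that went with those of RRM1. It read 3.48, 49.5 and 40.8 in CDT and 9.15, 7.89 and 5.60 in CDT + DHT. In early G1 it read 33.4, 11.3 and 30.4, in late G1 26.8, 16.3 and 18.1, and in early S 14.9 and 59.4. It read 0.472, 30.1 and 24.9 in late S and 47.7, 49.1 and 34.6 in G2/M. Its G2/M arrays lay above all CDT + DHT arrays, as did those of 15.1% of all genes. The difference was 2.40 ± 0.98, or 5.27-fold (limma, adjusted p = 0.255). That difference passed with array weights (0.0345) and with only the compared groups (0.0386), and shrank to 1.34 with 16 added before the log. CDT replicate 1 and late S replicate 1, the low arrays of their groups, are among the 4 at the end of the axis, and without those 4 the G2/M difference from CDT + DHT was 2.22 (0.0726).

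No difference of the salvage kinase genes passed. TK1 read 16.7, 36.5 and 15.4 in CDT and 22.4, 16.5 and 18.7 in late G1, a difference of -0.14 ± 0.59 (limma, adjusted p = 0.964). It read 30.9, 20.1 and 24.7 in CDT + DHT, 23.5, 17.4 and 29.6 in early G1 and 26.0 and 24.7 in early S. It was lowest in late S, at 4.40, 17.1 and 13.7, and read 8.01, 42.9 and 27.4 in G2/M. Against the other arrests the late G1 difference was 0.00 ± 0.47, with a 95% interval from -0.98 to 0.99. DCK ranged from 2.84 (late S replicate 1) to 26.7 (early S replicate 2), and groups held 7.56% of its variance. Its late G1 arrays, at 9.27, 7.33 and 8.43, lay below all CDT and CDT + DHT arrays, by 0.41 ± 0.72 (0.914) and 0.49 ± 0.72 (0.823) on average.

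CAD, which encodes the enzyme that begins pyrimidine synthesis, was dim, below the array median in 11 of 20 arrays. It read 0.479, 2.52 and 4.46 in late G1, against 15.4, 14.8 and 5.04 in CDT and 18.4, 12.8 and 4.36 in CDT + DHT. The late G1 differences were -1.93 ± 0.72, or 3.81-fold (limma, adjusted p = 0.408), and -1.89 ± 0.72 (0.242). With 16 added before the log they shrank to -0.57 and -0.56. With array weights the difference from CDT + DHT was -2.18 and passed (0.0287). In early G1 it read 2.20, 7.27 and 9.66, in early S 12.0 and 8.35, in late S 0.886, 8.09 and 7.31 and in G2/M 6.39, 13.8 and 5.14.

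Read as a set, 8 of the 9 genes lay below 0 in late G1 against the other arrests, with a median of -1.22 beside -0.09 over all genes, and 2 passed. Against CDT, 7 of 9 lay below 0 (median -0.41 beside -0.15), 1 passed, and the arrays of 5 genes lay wholly below CDT, as did those of 10.1% of all genes. In G2/M against CDT + DHT, 6 of 9 lay above 0 (median 0.80 beside -0.05) and none passed by limma. There 4 of the 9 had an unadjusted p under 0.05, as did 15.1% of all genes.

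Hydroxyurea and aphidicolin both stall S phase, the first through ribonucleotide reductase and the second through the polymerases, and the late S and early S groups set them side by side. None of the 9 genes passed by limma in this comparison, where 0.00543% of all genes passed. None of the 9 had an unadjusted p under 0.05, beside 5.85% of all genes. RRM2 was 0.98 ± 0.54 lower under hydroxyurea (95% interval -2.11 to 0.16, adjusted p = 0.775), and its 3 hydroxyurea arrays were below both aphidicolin arrays. Arrays of 18.9% of all genes likewise did not overlap. TK1 was 1.22 ± 0.66 lower (0.775) and CAD 1.08 ± 0.81 lower (0.782), also without overlap. SAMHD1 differed by -1.55 ± 1.09 (0.778), and by -0.13 without late S replicate 1. RRM2B differed by -0.90 ± 1.37 (0.877) and DCK by -0.37 ± 0.80 (0.917). RRM1 differed by -0.89 ± 0.91 (0.820), TYMS by 0.15 ± 0.52 (0.945) and DUT by 0.27 ± 0.52 (0.905). The sign for TYMS rests on 1 of the 2 aphidicolin arrays: its difference was -0.55 without early S replicate 1 and 0.86 without replicate 2. Late S replicate 1, in which all 9 genes lay below their group mean, is 1 of the 3 hydroxyurea arrays. G2/M against early S gave no call either, among the 9 or among all genes (0%), by limma. At an unadjusted p under 0.05, 629 of all genes (3.42%) and none of the 9 differed there.

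DHT alone, given for 3 h, gave no call among the 9 genes or among all genes (limma, 0%). At an unadjusted p under 0.05 were 1263 genes (6.86%) and none of the 9. TYMS averaged 7.51 ± 0.22 (SD, n = 3) in CDT and 7.51 ± 0.35 (n = 3) in CDT + DHT, with a 95% interval of the difference from -0.97 to 0.98. RRM2 differed by 0.31 ± 0.49 (SE; interval -0.71 to 1.33), TK1 by 0.22 ± 0.59 and DUT by 0.27 ± 0.46. RRM2B differed by -0.18 ± 1.23, DCK by 0.08 ± 0.72 and CAD by -0.04 ± 0.72. SAMHD1 was 1.33 ± 0.98 lower and RRM1 0.68 ± 0.81 lower, and CDT replicate 1 was low for both. Without that array the differences were -2.45 and -1.80.

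**Figure D3:**
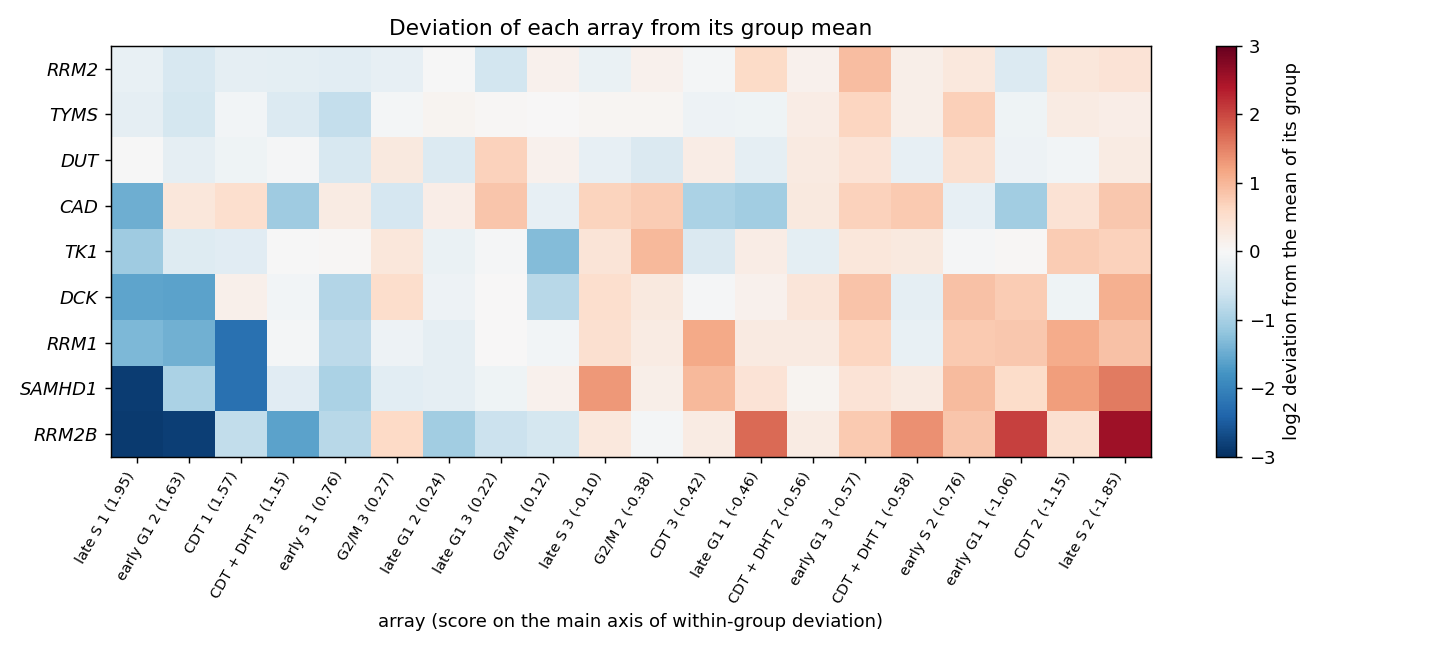
Colour gives the log2 deviation of each gene from the mean of its group (red above, blue below) in each array, and arrays are ordered by their score on the main axis of within-group deviation over all genes, printed in parentheses. RRM2, TYMS and DUT in the upper rows stay pale, while RRM1, SAMHD1 and RRM2B in the lower rows run from blue in the arrays of high score to red in those of low score.

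The genes differed in their spread between replicates. Pooled within-group SDs were 0.40 for DUT, 0.41 for TYMS, 0.46 for RRM2 and 0.68 for TK1, and 0.91 for DCK, 0.92 for CAD, 1.07 for RRM1, 1.35 for SAMHD1 and 1.74 for RRM2B, beside a median of 0.91 over all genes. Over the 20 arrays, which share groups and the axis above, Pearson correlations are given as a description without a test. RRM2 went with TYMS (r = 0.93, and 0.95 over the 7 group means). RRM1 went with SAMHD1 (0.81, and 0.91 in the deviations from group means), and RRM2B with DCK (0.74, and 0.80 in the deviations). Among 9201 brighter genes, the 9 described here left out, those most like RRM2 over the 20 arrays were FOXM1 (r = 0.92), TCF19 (0.90) and CDC25B (0.88). FOXM1 is a transcription factor of the G2/M program. Those most like RRM1 were UGDH (0.94), RNF168 (0.94) and RAB1A (0.93), and those most like RRM2B were CREB1 (0.92), ACADM (0.90) and POLR1F (0.89).

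The rest of the pathway was read from lists of 62 genes, of which 57 had a probe set of their own. They were other deoxynucleotide enzymes, the folate cycle of thymidylate synthesis, pyrimidine and purine synthesis and salvage, electron donors of the reductase, and nucleoside transporters. Of the 57, none passed by limma in 14 of 16 comparisons. In late G1 against the other arrests 1 passed, lower, and 23 differences lay above 0 and 34 below, with a median of -0.09 that equals that of all genes. In late G1 against CDT + DHT 1 passed, lower, with 21 above and 36 below 0. Both calls were SLC29A1, the equilibrative nucleoside transporter ENT1, which carries nucleosides for salvage across the cell membrane.

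SLC29A1 read 3.91, 3.25 and 5.57 in late G1, below the array medians of 6.23, 7.30 and 8.13. It read 24.3, 21.1 and 18.2 in CDT, 32.8, 31.4 and 31.4 in CDT + DHT and 15.0, 16.5 and 26.3 in early G1. In early S it read 22.9 and 31.5, in late S 9.17, 32.1 and 18.9, and in G2/M 20.0, 24.0 and 21.5. Each late G1 array was below each of the other 17. Late G1 arrays of 1.28% of all genes lay wholly below the other arrests. SLC29A1 fell by 2.67 ± 0.47, or 6.37-fold, against CDT + DHT (limma, adjusted p = 0.0121) and by 2.09 ± 0.37, or 4.27-fold, against the other arrests (0.00878). It lay 2.10 ± 0.47 below CDT (0.0986). The call against CDT + DHT was lost without CDT + DHT replicate 1, 2 or 3 (0.0756, 0.0702 and 0.0515), without late G1 replicate 2 (0.0519) and with only the compared groups (0.107). The call against the other arrests was lost without late G1 replicate 1 or 2 (0.0534 and 0.0685). With 16 added before the log the differences were -1.24 and -0.89, and both passed. Without the 4 arrays at the end of the axis they were -2.68 (0.0266) and -2.23 (0.00334).

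**Figure D4:**
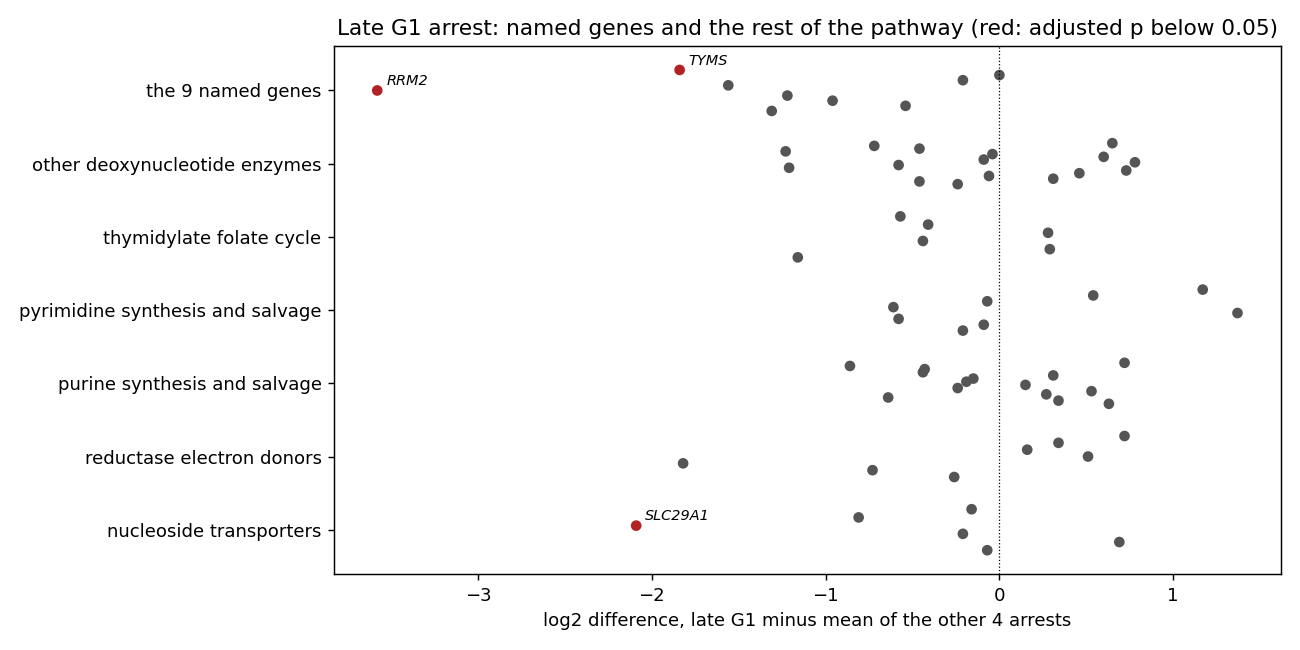
Each point is the limma difference, late G1 minus the mean of the other 4 arrests on the log2(intensity + 1) scale, of 1 gene, by list, with the 9 named genes on top and red marking an adjusted p below 0.05. RRM2 (-3.58), TYMS (-1.84) and SLC29A1 (-2.09) are the red points, and the other lists scatter on both sides of 0.

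Other pathway genes had small p-values without passing in the main analysis. In G2/M against CDT + DHT, TXNRD1, a thioredoxin reductase that keeps a donor of the reductase reduced, was 2.96 ± 0.82 higher (limma, adjusted p = 0.107), and MTHFD2, a mitochondrial folate enzyme, was 2.50 ± 0.81 higher (0.164). The TXNRD1 difference passed using eBayes with trend and robust (0.0333), array weights (0.00865) or only the compared groups (0.0350), and without CDT replicate 1 (0.0464). The MTHFD2 difference was 0.81 with the mean of its probe sets (0.635) and 1.41 with 16 added before the log (0.106). With array weights it was 1.90 and passed (0.0349). In early G1 against CDT, DHODH, which catalyses a later step of pyrimidine synthesis, was 2.39 ± 0.69 lower (0.726). It was dim there, at 6.17, 0.148 and 2.13. The DHODH difference was -0.78 with 16 added before the log (0.454) and -1.09 without the 4 arrays at the end of the axis (0.982). In late S against CDT, PNP, a purine nucleoside phosphorylase, was 1.82 ± 0.53 higher (0.413). The PNP difference was 2.34 with array weights and passed (0.0179). MKI67, a marker of proliferating cells, read 1.91, 0.0368 and 0.00688 in late G1 and averaged 0.53 ± 0.87 (SD, n = 3) there. It fell by 3.65 ± 0.61 (SE) against the other arrests (limma, adjusted p = 0.00514), with arrays that overlapped. RRM2 fell by 3.58 in that comparison. MKI67 did not follow RRM2 in every group. It averaged 3.57 ± 0.86 (SD, n = 3) in early G1 and 3.25 ± 1.62 (n = 3) in late S. The controls averaged 3.29 ± 0.94 (n = 3) in CDT and 2.31 ± 0.39 (n = 3) in CDT + DHT. Early S, at 4.39 ± 1.44 (n = 2), and G2/M, at 5.51 ± 0.32 (n = 3), averaged above both controls.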

How the data were processed

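Per the labels' protocols, Trizol was used to extract RNA for the 20 LNCaP arrays, the Ovation Pico WTA V2 kit (NuGEN) to amplify it, and biotin to label it. Per the submitters' processing notes, the authors used Affymetrix Expression Console 1.1, and the deposited values are probe set intensities, linear by their range. How probes were summarised, whether arrays were normalized against each other and which genome build was used is not given in the sources used here. Array medians ran from 5.44 to 9.08, no value was at or below 0 and 0 pairs of arrays were identical. The number of arrays limits the precision.

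Of 33297 features, 19460 had 1 gene symbol in the platform's annotation and 1754 several. 19429 matched RefSeq (GRCh38.p14) by Entrez ID, and the brightest of a gene's probe sets (769 genes had several) gave 18417 genes. log2(intensity + 1) was fitted with limma 3.58.1 (R 4.3.3; functions lmFit and eBayes, 7 groups, 20 arrays, two-sided, Benjamini-Hochberg adjustment over all genes, threshold 0.05) in 16 comparisons and an F test among the 5 arrests. The fit was tested on simulated data. Motifs were searched in Python 3.11.15. The genes and lists were chosen with earlier results of these data known. Not all 9 genes are given in every comparison. Of other pathway genes, those named are, per comparison, up to 2 that passed per direction, or up to 2 with the smallest p. The genes most like each reductase gene are the 3 of highest correlation, the 9 left out, among genes above the median mean level. Alternatives were 16 added in place of 1, quantile normalization, centring, only genes above the median mean level, the mean of a gene's probe sets, eBayes with trend and robust, array weights, a block for the replicate number, a fit of the compared groups alone, no arrays at the end of the axis, and each array left out.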

Additional observations from a re-analysis of the deposited data

Results flagged for a closer look

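The late G1 arrest differed from the mean of the other 4 arrests by a test of the difference itself in 2 of the 9 genes. RRM2 was lower there by a log2 difference of -3.58 (limma, adjusted p = 0.000111), in all 3 late G1 arrays against all 11 others. TYMS was lower by a log2 difference of -1.84 (limma, adjusted p = 0.0224), with overlap between late and early G1 arrays. Against early G1 alone neither gene passed. The differences were -1.75 ± 0.49 for RRM2 (limma, adjusted p = 0.351) and -0.53 ± 0.46 for TYMS (0.912). MKI67 was lower in late G1 than the mean of the other 4 arrests, by 3.65 ± 0.61 on the log2 scale, with arrays that overlapped. Its part in these differences was not tested.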

How the results depend on the processing

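RRM2 in late G1 against the other arrests passed in all 30 alternatives, and no called difference changed sign. Some differences that were not called did. In late G1 against CDT, where 1 of the 9 genes passed, 3 passed with 16 added before the log (RRM2, TYMS and DUT), 2 with eBayes trend and robust, and 0 with only the compared groups or without the 4 arrays at the end of the axis. Leaving out 1 array gave 0 to 1. Against CDT + DHT, where 1 passed, 3 passed with 16 added, with centring, with only the brighter genes and with eBayes trend and robust. With array weights 4 passed (CAD too), and with only the compared groups 0. Leaving out 1 array gave 0 to 1. In late G1 against the other arrests, where 2 passed, 1 passed with only the compared groups, 3 passed without those 4 arrays (RRM1 too), and leaving out 1 array gave 1 to 2. Among the 5 arrests by the F test, where 2 passed, 1 passed with the replicate block, with only the compared groups and without those 4 arrays, and leaving out 1 array gave 1 to 2. Comparisons without a call gained some. Early S against CDT gained 1 with 16 added. Late S against CDT + DHT gained 1 with array weights, and G2/M against CDT + DHT gained 2 with array weights, 2 with only the compared groups and 1 without those 4 arrays. The S arrests against early G1 gained 2 with 16 added, 2 with eBayes trend and robust, and 1 each with quantile normalization, centring and only the brighter genes. There leaving out 1 array gave 0 to 1. The cause of these changes was not tested, beyond fewer arrays or genes where these were left out. The brighter genes held 7 of the 9, without RRM2B and CAD.

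Replicate numbers are shared by the groups, but same-numbered arrays did not deviate together: over 57 pairs the correlation of deviations ran from -0.68 to 0.66 with a median of -0.03, as for 114 pairs of different number (median -0.03). With the replicate block RRM2 in late G1 kept adjusted p-values of 0.0486 against CDT, 0.0154 against CDT + DHT and 0.000631 against the other arrests, and TYMS 0.0424 against the other arrests. Quantile normalization shifted the median of all genes in late G1 against the other arrests by 0.13, under which RRM2 differed by -3.51 and TYMS by -1.76. Signal is a limit for RRM2B and CAD, each below the array median in 11 of 20 arrays. It is also a limit for the late G1 side of RRM2 and SLC29A1. There RRM2 was below the array median in replicates 2 and 3, and SLC29A1 in replicates 1, 2 and 3.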
